A study of Mus musculus with 12 samples.

Results

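The genes described here were 10 regulators, receptors and killing proteins of natural killer (NK) cells and innate lymphoid cells (ILCs): Zbtb16, Rora, Tbx21, Eomes, Nfil3, Tox, Klrd1, Ncr1, Gzmb and Prf1. They were chosen by name, as 10 of the 21755 protein-coding genes placed on the autosomes and X chromosome of the mouse genome (mm10, GENCODE). Every DNase I peak within 50 kb either side of each gene body was taken. Peaks within 1 kb of the gene's 5′ end were called its promoter and kept apart from distal peaks. After overlapping peaks of the 12 libraries were merged into consensus DNase I hypersensitive sites (DHSs), these windows held 280 of 170207 DHSs, of which 17 lay at the gene's own promoter, 12 at the promoter of another coding gene and 251 were distal.

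DNase I cuts chromatin where nucleosomes are loosened, and each library was deposited as a list of peaks of such cutting. All cells came from C57BL/6J mice, starting with Lin-SCA1+KIT+ (LSK) marrow cells, a mixture of stem cells and multipotent progenitors. LSK cells were assayed fresh in 3 libraries. LSK cells grown on immobilized Delta1, a Notch ligand fused to an IgG tail, with SCF, FLT-3 ligand, IL-6 and IL-11 (4GF) were sorted as DN1 (KIT++CD44+CD25-, 2 libraries). Cells sorted after IL-7 was also added were DN2a (KIT++CD44+CD25+, 2 libraries) and DN2b (KIT+CD44loCD25+, 2 libraries). LSK cells grown in 4GF on control human IgG without ligand made up the IgG group (3 libraries). IL-7 and the DN2 stages therefore cannot be told apart. The DN populations were sorted from cultures of each LSK isolate, so libraries of different stages may share an isolate, and p-values treat them as independent. Lists held 32952 to 111582 peaks on the autosomes and X chromosome, with the shortest in IgG replicate 2 and the longest in DN2b replicate 2. Peaks on the Y and mitochondrial chromosomes, 0.0622% of all, were left out. Read depth is unknown. How the deposited score was computed is not stated, and it entered only as a percentile within its own library, the strongest peak being at the top. Such a percentile also moves with the length of the list. Values are from the lists as deposited unless the text says that they are from equal list lengths, made by keeping the 32952 highest-scoring peaks of every library.

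NK cells and ILCs are lymphocytes without rearranged antigen receptors that arise from the same marrow progenitors as T cells. Nfil3 and Tox act early in their development. Zbtb16 (PLZF) marks ILC precursors, Rora is needed for group 2 ILCs, and Tbx21 (T-bet) and Eomes drive the type 1 ILC and NK programs. Early thymic progenitors can still become NK cells or ILCs until Notch signalling and Bcl11b close those routes. Klrd1 (CD94) and Ncr1 (NKp46) are surface receptors of NK cells, and Gzmb (granzyme B) and Prf1 (perforin) carry out target cell killing and are also made by cytotoxic T cells. In bulk libraries a weaker peak can mean fewer cells of a type or less cutting per cell, and these cannot be told apart.

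The sites that separated the groups are shown by sequence, each as the 150 bases of the highest-scoring peak in the DHS, read 5′ to 3′ on the plus strand of mm10. Capitals mark letters searched on both strands: T-box GGTGTGA, RUNX TGNGGT, the GATA letters AGATAA or TGATAA, TCF1 CTTTGA, RBPJ GTGGGAA, E-box CANCTG, PU.1 GAGGAAGT and NFIL3 TTANGTAA. Over the highest-scoring peak of all 170207 DHSs, 2.28% held the T-box letters, 39.9% RUNX, 13.3% either GATA form, 11.2% TCF1, 3.41% RBPJ, 38.9% E-box, 5.72% PU.1 and 1.49% NFIL3. A match is a description of the letters and not a bound site. The first pair lay at the receptor gene Klrd1, at its promoter (chr6:129591597-129591746) and between it and Klrk1 (chr6:129608497-129608646):
Klrd1 promoter: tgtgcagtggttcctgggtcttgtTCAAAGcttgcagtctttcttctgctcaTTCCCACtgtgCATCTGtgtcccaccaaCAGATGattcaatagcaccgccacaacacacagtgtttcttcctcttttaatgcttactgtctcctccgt
Klrd1 distal: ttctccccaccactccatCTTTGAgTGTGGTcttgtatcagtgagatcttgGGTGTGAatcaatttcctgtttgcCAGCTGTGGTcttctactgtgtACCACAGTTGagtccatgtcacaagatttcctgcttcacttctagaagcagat
The promoter peak held TCF1 and RBPJ letters and a pair of E-box matches, and the distal peak was the only one printed here with the T-box letters, beside RUNX, TCF1 and E-box matches that overlapped in part. The next pair lay at Gzmb, at its promoter (chr14:56262277-56262426) and upstream of it (chr14:56287937-56288086):
Gzmb promoter: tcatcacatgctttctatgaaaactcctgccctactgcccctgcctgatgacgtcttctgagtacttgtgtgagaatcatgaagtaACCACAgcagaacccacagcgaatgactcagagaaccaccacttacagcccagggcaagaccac
Gzmb distal: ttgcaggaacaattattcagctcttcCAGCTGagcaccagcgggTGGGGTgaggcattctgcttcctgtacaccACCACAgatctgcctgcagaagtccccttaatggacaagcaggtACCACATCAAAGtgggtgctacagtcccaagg
One RUNX match stood in the Gzmb promoter peak, and the distal peak held 3 RUNX matches, a TCF1 match directly after the last of them and an E-box. The next 3 sites were the highest-percentile distal sites of their genes, each in a Delta1-cultured library, in introns of Zbtb16 (chr9:48795217-48795366) and Rora (chr9:69034577-69034726) and past the 3′ end of Tox (chr4:6675137-6675286):
Zbtb16 intron: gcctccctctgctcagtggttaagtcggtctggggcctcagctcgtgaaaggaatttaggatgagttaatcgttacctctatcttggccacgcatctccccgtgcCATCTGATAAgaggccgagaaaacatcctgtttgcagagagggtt
Rora intron: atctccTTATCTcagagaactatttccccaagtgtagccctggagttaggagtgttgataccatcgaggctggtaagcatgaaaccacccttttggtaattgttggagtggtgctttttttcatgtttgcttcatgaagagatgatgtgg
Tox distal: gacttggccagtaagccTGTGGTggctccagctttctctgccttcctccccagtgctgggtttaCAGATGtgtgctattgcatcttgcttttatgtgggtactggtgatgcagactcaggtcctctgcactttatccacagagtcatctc
GATA letters stood in the Zbtb16 peak, overlapping an E-box, and in the Rora peak, and RUNX and E-box letters in the Tox peak. The sites with the opposite pattern were a pair at Nfil3 found in IgG cultures alone, upstream (chr13:52985797-52985946) and in an intron (chr13:52976797-52976946):
Nfil3 upstream: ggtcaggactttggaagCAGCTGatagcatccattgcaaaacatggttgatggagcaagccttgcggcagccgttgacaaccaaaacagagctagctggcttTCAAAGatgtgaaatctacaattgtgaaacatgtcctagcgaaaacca
Nfil3 intron: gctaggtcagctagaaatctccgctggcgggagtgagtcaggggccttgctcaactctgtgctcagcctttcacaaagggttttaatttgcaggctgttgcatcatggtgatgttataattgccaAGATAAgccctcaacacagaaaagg
The upstream peak held an E-box and TCF1 letters and the intron peak GATA letters. None of these peaks held the PU.1 or NFIL3 letters. The last was the site upstream of Prf1 (chr10:61275757-61275906), open in all libraries and lowest in IgG:
Prf1 distal: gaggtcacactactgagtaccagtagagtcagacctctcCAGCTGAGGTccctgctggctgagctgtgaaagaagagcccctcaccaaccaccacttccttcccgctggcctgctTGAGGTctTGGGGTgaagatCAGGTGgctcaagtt
It held RUNX and E-box matches, one pair of which overlapped.

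Among the 10 promoters, LSK had 5 open in at least 2 libraries, DN1 had 6, DN2a had 4, DN2b had 5 and IgG had 1. At equal list lengths these counts were 1, 2, 3, 3 and 1. Only Nfil3 had a promoter peak in any IgG library, whereas Zbtb16, Nfil3, Tox, Klrd1, Gzmb and Prf1 were each open in 6 to 10 libraries in all. Rora, Tbx21 and Eomes had a peak at the 5′ end in 1, 2 and 3 libraries, and Ncr1 in none. Among all coding genes, LSK had 51.5% open by the same count, DN1 had 49.4%, DN2a had 46.7%, DN2b had 50.3% and IgG had 42.9%. At equal list lengths these shares were 45.6%, 41.8%, 41.7%, 43.2% and 42.2%. Promoters closed in all 12 libraries, as at Ncr1, numbered 8149 of all coding genes (37.5%), and 11464 (52.7%) had no peak in any IgG library. The 4 genes of surface receptors and killing proteins had CpG-poor promoters, with observed over expected CpG of 0.116 to 0.162 in the 2 kb around the start. The 6 regulators ranged from 0.533 at Tox to 0.994 at Nfil3.

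**Figure D1:**
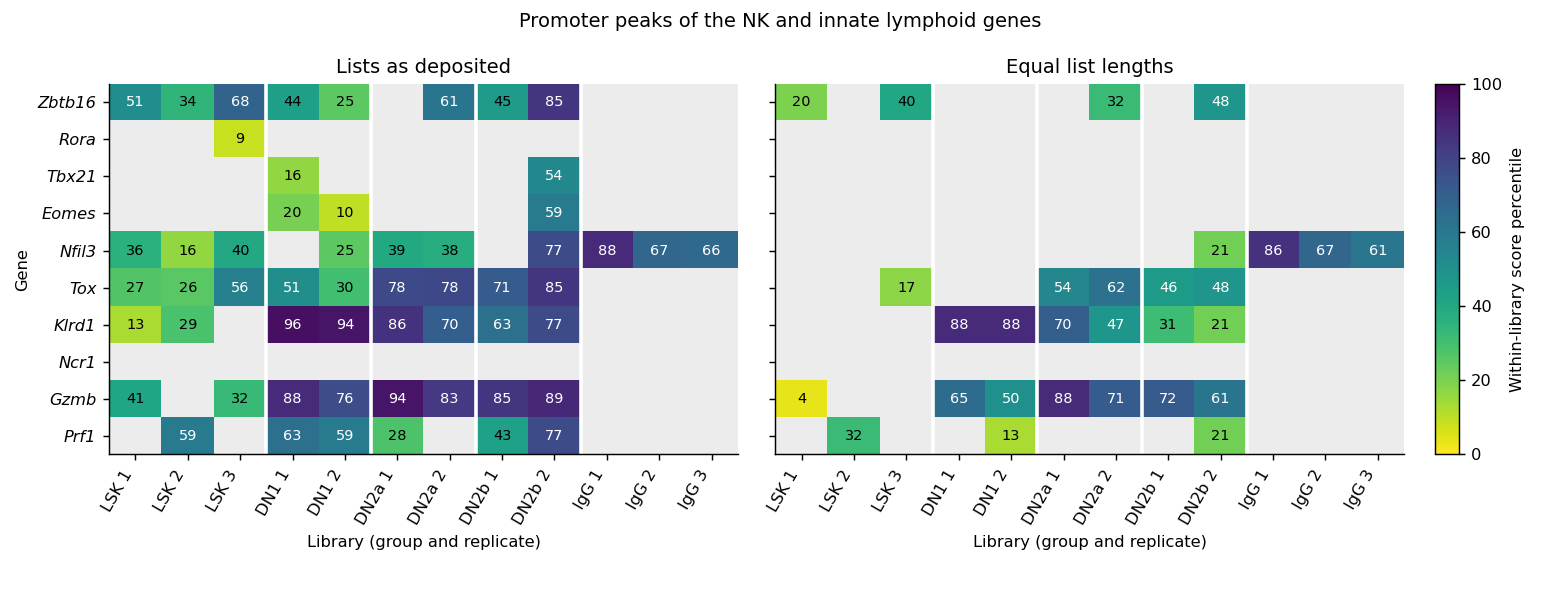
Promoter peaks of the 10 genes (rows) in the 12 libraries (columns), lists as deposited and at equal lengths (colour and number, within-library percentile of the highest peak within 1 kb of the 5′ end; grey, no peak). Klrd1 and Gzmb were strongest in the Delta1-cultured libraries, while Nfil3 was the only gene with peaks in the IgG columns.

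Tox, an HMG-box factor needed for NK cells, ILC precursors and CD4 T cells, had a stronger promoter peak in DN2 than in LSK and DN1 libraries. Its promoter stood at the 27.3, 25.6 and 56.4 percentile in LSK and at 50.6 and 30.5 in DN1. It stood at 77.8 and 78.5 in DN2a and at 70.9 and 84.6 in DN2b, with no peak in IgG. All 4 DN2 values were above all 5 LSK and DN1 values. LSK averaged 36.4 ± 17.3 (SD, n = 3). The other means, each over 2 libraries, were DN1 40.5 ± 14.2, DN2a 78.1 ± 0.472 and DN2b 77.7 ± 9.68 (SD). At equal lengths the promoter was open in all 4 DN2 libraries and 1 of the other 8 (exact permutation test, two-sided, p = 0.0101, adjusted p = 0.305). A 150-bp DHS just inside the gene (chr4:6991217-6991366) was found in the 3 LSK libraries alone, at 27.3, 25.6 and 54.6, while the peak that carried the DN values lay 0.925 kb into the gene. With a 500 bp window around the 5′ end, which leaves that second peak out, the Tox promoter was open in 3 libraries instead of 9. The only coding start site of Tox lay 0.758 kb into the gene, nearer to that second peak than the 5′ end. Its 1 kb window was open in 9 libraries.

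The Tox window held 37 DHSs and its counts of peaks were 4, 6 and 8 in LSK, 15 and 11 in DN1, 17 and 17 in DN2a, 14 and 26 in DN2b, and 0, 1 and 2 in IgG. Every Delta1-cultured library exceeded every LSK and IgG library. The site 316 kb from the start and past the 3′ end, printed as Tox distal, was found in all 6 Delta1-cultured libraries and no other, at 22.7 and 42.9 in DN1, 81.4 and 68.9 in DN2a, and 88.9 and 95.5 in DN2b. DN1 was lowest and DN2b highest at this site, and at equal lengths only the 4 DN2 libraries kept it. An intron site 41.1 kb from the start (chr4:6950377-6950566) was flatter over the same 6 libraries, at 77.8, 70.6, 70.6, 66.5, 75.2 and 78.5. A second intron site at 89.2 kb (chr4:6902217-6902426) stood at 75.0 and 68.4 in DN1, 87.6 and 82.7 in DN2a and 90.7 and 93.4 in DN2b, and at 10.5 in LSK replicate 2 alone of the remaining libraries.

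Zbtb16, whose product PLZF directs ILC precursors and NKT cells, had an open promoter in all 3 LSK libraries (50.8, 34.5 and 68.3), both DN1 (43.6 and 25.1), DN2a replicate 2 (61.0) and both DN2b (44.9 and 84.6). LSK and Delta1-cultured values overlapped throughout, and none of the IgG libraries had a peak. The introns differed from the promoter. The site printed as Zbtb16 intron, 41.0 kb from the start, was found in the 6 Delta1-cultured libraries alone, at 71.6 and 71.7 in DN1, 84.5 and 85.4 in DN2a and 82.3 and 93.4 in DN2b. A pair of intron sites was found in the 4 DN2 libraries alone. The one at 31.5 kb (chr9:48804677-48804846) stood at 69.6, 56.2, 74.4 and 84.2, and the one at 16.5 kb (chr9:48819617-48819866) at 76.2, 61.0, 54.3 and 86.3. Its promoter kept a peak at equal lengths in 4 libraries, LSK replicates 1 and 3, DN2a replicate 2 and DN2b replicate 2. The 3 intron sites kept their pattern at equal lengths. The whole 182 kb gene with its flanks held 13, 10 and 11 peaks in LSK, 18 and 15 in DN1, 14 and 12 in DN2a, 13 and 22 in DN2b, and 6, 4 and 4 in IgG. The DN2a and DN2b counts overlapped those of LSK, and IgG was lowest. At equal lengths the counts were 7, 5 and 6 in LSK, 6 and 4 in DN1, 8 and 9 in DN2a and 5 and 7 in DN2b. IgG, at 6, 4 and 4, then overlapped all of these groups but DN2a.

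Rora, a nuclear receptor gene of 735 kb, had the most DHSs of the 10 genes, 93, and almost none at its 5′ end, where the single peak was in LSK replicate 3 at the 8.55 percentile. A coding start site 636 kb into the gene was open in 10 libraries instead, at 81.0, 71.1 and 68.3 in LSK, 68.8 and 56.9 in DN1, 74.5 and 76.8 in DN2a, 76.0 and 89.6 in DN2b and 26.6 in IgG replicate 1. It had no peak in the other two IgG libraries. The intron site printed here, 381 kb from the start, reached 93.5 and 89.1 in DN1, 97.5 and 94.8 in DN2a and 96.8 and 98.6 in DN2b. LSK replicates 2 and 3 stood at 10.5 and 4.88 there, LSK replicate 1 and IgG had no peak, and at equal lengths the site was found in the 6 Delta1-cultured libraries alone.

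The window held 23, 26 and 26 peaks in LSK, 39 and 29 in DN1, 33 and 27 in DN2a, 36 and 53 in DN2b and 6, 3 and 11 in IgG, so that every Delta1-cultured library was above every other. At equal lengths LSK (9 to 13) and Delta1-cultured libraries (9 to 12) overlapped, and IgG had 3, 3 and 7. Other Rora sites followed the opposite order or a single stage. An intron site at chr9:69301477-69301626 was found in LSK alone, at 58.6, 63.6 and 42.0. Another at chr9:69195057-69195226 was found in LSK (30.2, 55.4 and 64.3) and DN1 (63.2 and 47.4) but in no DN2 or IgG library, and one more at chr9:69167017-69167186 in DN1 alone (63.2 and 53.4). The DN2 libraries alone had a site just past the 3′ end (chr9:69394337-69394566) at 27.9, 42.3, 65.6 and 82.0, although it lay 3.45 kb from the start of the neighbouring gene Ice2. At equal lengths this last site was left in the DN2b libraries alone, the LSK site in LSK replicates 1 and 2, the LSK and DN1 site in LSK replicates 2 and 3, and the DN1 site in DN1 replicate 2. One intron site (chr9:68957057-68957326) was open in all 12 libraries, at 79.6, 79.2 and 83.5 in LSK, 68.8 and 53.4 in DN1, 34.9 and 40.0 in DN2a, 25.6 and 60.2 in DN2b, and 54.0, 48.3 and 64.2 in IgG. All 3 LSK values were above those of every other library at this site.

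Tbx21, the gene of the master factor of type 1 ILCs, was closed at its promoter in 10 libraries, with peaks in DN1 replicate 1 (16.1) and DN2b replicate 2 (53.5), the libraries with the longest lists. Its window held 10, 9 and 9 peaks in LSK, 14 and 13 in DN1, 14 and 11 in DN2a, 13 and 19 in DN2b, and 8, 7 and 8 in IgG. These counts did not overlap between the Delta1-cultured and other libraries, but at equal lengths they did, at 3 to 6 against 5 to 8. A site just past the end of the gene (chr11:97096217-97096386) was found in the 6 Delta1-cultured libraries alone, at 60.7 and 16.9 in DN1, 70.6 and 73.1 in DN2a and 77.5 and 87.1 in DN2b. DN1 was lowest, and at equal lengths the 4 DN2 libraries alone kept it. The window also held the promoter of Osbpl7, open in all libraries, and the start of Tbkbp1, so its counts are not those of Tbx21 alone. Among the windows of the other genes, only those of Tox and Ncr1 held no further coding start. The counts of the rest are likewise not those of the named gene alone.

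Eomes, the T-box partner of T-bet in NK cells, had promoter peaks in DN1 (20.5 and 9.72) and DN2b replicate 2 (59.2), and none at equal lengths. A site downstream of the gene (chr9:118489737-118489926) was open in every LSK and Delta1-cultured library and no IgG library. It stood at 60.4, 53.5 and 58.1 in LSK, 76.5 and 56.9 in DN1, 60.9 and 50.6 in DN2a and 55.9 and 77.4 in DN2b, with all groups but IgG overlapping, and kept this pattern at equal lengths. The window held 2 peaks in each LSK library, 4 and 4 in DN1, 2 and 3 in DN2a, 3 and 10 in DN2b and 0, 0 and 1 in IgG. Without DN2b replicate 2 the Delta1-cultured mean exceeded that of LSK and IgG by 2.03 peaks instead of 3.17, and the call made on it was lost. The Golga4 promoter in the same window (chr9:118506097-118506346) was likewise open in these 9 libraries, at 40.7 to 82.9.

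Nfil3, a bZIP repressor on which NK cells and all ILC precursors depend, had the opposite order. Its promoter stood at 36.0, 16.2 and 39.6 in LSK and at 87.6, 66.9 and 65.5 in IgG. DN1 replicate 2 stood at 25.1, DN2a at 39.3 and 37.6 and DN2b replicate 2 at 76.8, with no peak in DN1 replicate 1 or DN2b replicate 1. LSK averaged 30.6 ± 12.6 (SD, n = 3) and IgG 73.4 ± 12.4 (SD, n = 3), without overlap, while DN2b replicate 2, the longest list, fell inside the IgG range. The promoter was open at equal lengths in the 3 IgG libraries and DN2b replicate 2. Around the 10 genes, the DHSs found in all 3 IgG libraries and in no other numbered 3, all of them at Nfil3. The upstream site, 4.799 kb from the start, stood at 93.5, 91.8 and 90.2, the intron site at 88.1, 86.2 and 86.3, and one 37.2 kb upstream (chr13:53018137-53018306) at 42.3, 38.2 and 32.2. The pair printed was absent from the 9 other lists. Peaks in the whole window numbered 6, 6 and 7 in LSK, 6 and 6 in DN1, 11 and 11 in DN2a, 4 and 17 in DN2b and 9, 9 and 6 in IgG, and at equal lengths 9, 9 and 6 in IgG against 3 to 5 in every other library. A neighbouring site 1.89 kb upstream (chr13:52982837-52983086) was open in all 12 libraries at 68.9 to 88.0, with IgG at 83.5, 84.0 and 85.2 inside that range. Nfil3 is also used in myeloid cells, and of the 7 myeloid markers counted here (Mpo, Elane, Csf1r, Csf3r, Cebpa, Cebpe and S100a8), 4 had promoters open in at least 2 IgG libraries against 2 in LSK and 1 in each DN group. At equal lengths this was 4 in IgG and 1 in each other group. Their part in the Nfil3 result was not tested.

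**Figure D2:**
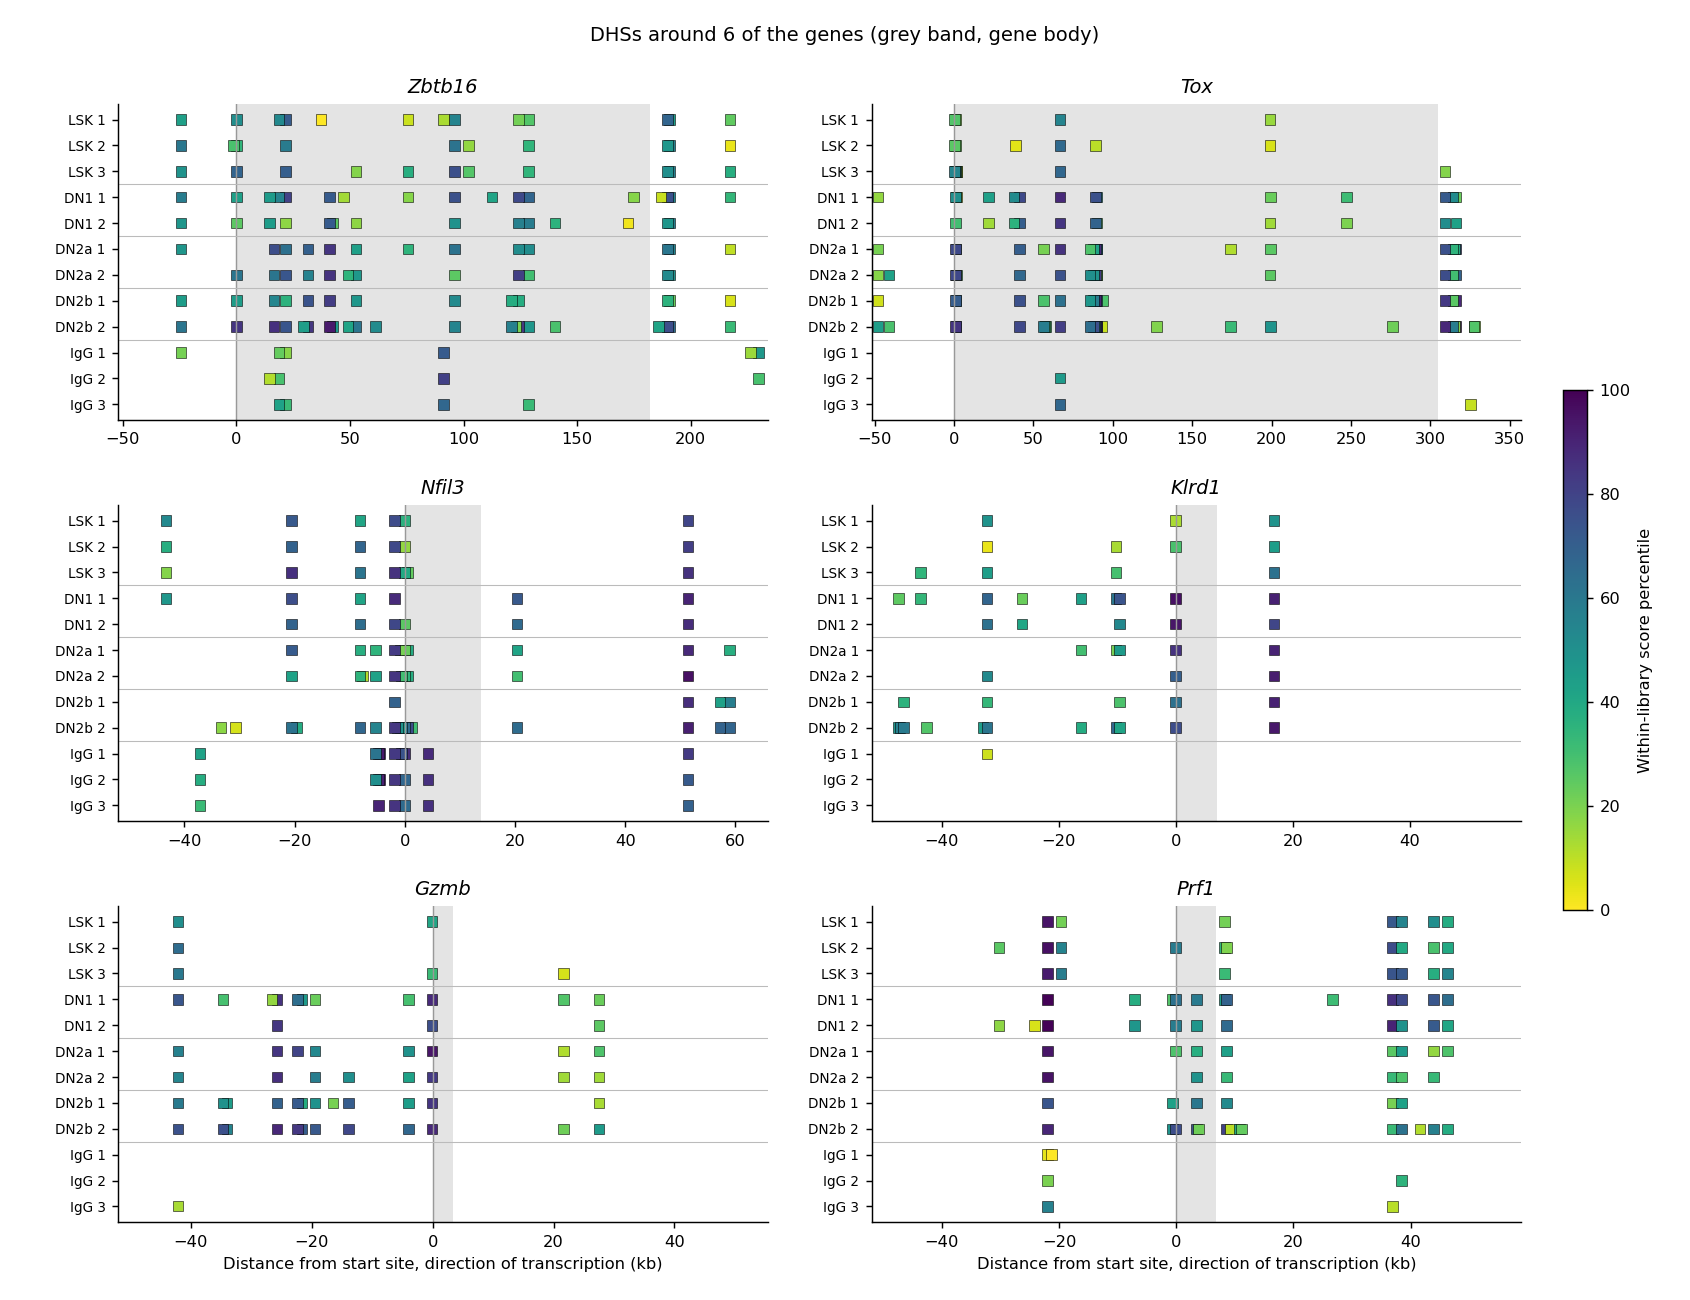
DHSs around 6 of the genes, by distance from the start site in kb (x axis, grey band the gene body) and library (rows), each mark a DHS coloured by its within-library percentile. At Tox every DN row holds more marks than any LSK or IgG row, at Gzmb all but DN1 replicate 2 do, and at Nfil3 the strongest IgG marks flank the start.

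Klrd1, the CD94 chain that pairs with NKG2 receptors on NK cells, had the strongest promoter of the set in DN1, at 96.0 and 94.2. It stood at 85.5 and 70.02 in DN2a, 63.1 and 76.8 in DN2b, and 12.6 and 28.6 in LSK replicates 1 and 2, with no peak in LSK replicate 3 or in IgG. Over 2 libraries each, DN1 averaged 95.1 ± 1.29, DN2a 77.8 ± 10.95 and DN2b 69.97 ± 9.67 (SD), and both DN1 values were above all 4 DN2 values. At equal lengths the promoter was open in 6 of 6 Delta1-cultured libraries, at 88.3 and 87.7 in DN1, 69.9 and 47.5 in DN2a and 31.2 and 21.5 in DN2b, and in 0 of 6 others. Of the 4043 promoters tested at equal lengths, 1.01% were open in all Delta1-cultured and no other library. The exact permutation test gave p = 0.00217, the smallest that 6 against 6 libraries allow, and adjusted p = 0.120. The distal site between Klrd1 and Klrk1 was open in the 9 libraries other than IgG. It stood at 48.6, 44.6 and 62.8 in LSK, 90.8 and 79.3 in DN1, 90.4 and 91.9 in DN2a and 90.7 and 93.7 in DN2b, so every Delta1-cultured value was above every LSK value. The window held 3, 4 and 4 peaks in LSK, 9 and 5 in DN1, 5 and 3 in DN2a, 5 and 11 in DN2b and 1, 0 and 0 in IgG. The distal site lay 16.8 kb from the start of Klrd1 and 15.3 kb from that of Klrk1. The files do not assign it to either.

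Ncr1, the gene of the NK receptor NKp46, had no promoter peak in any library. Its window held 0, 0 and 1 peaks in LSK, 5 and 4 in DN1, 5 and 3 in DN2a, 4 and 4 in DN2b and 4, 3 and 0 in IgG. At equal lengths it held 0 in each LSK library, 0 and 1 in DN1, 1 and 2 in DN2a and 1 and 0 in DN2b. The IgG counts stayed at 4, 3 and 0. The site in the 6 Delta1-cultured libraries alone was weak, at 19.6 to 65.9, lay 29.2 kb away (chr7:4366837-4367046) in a UTR of the platelet gene Gp6, and was left in 1 library at equal lengths.

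Gzmb, the granzyme loaded into killer cell granules, was strong at its promoter in all Delta1-cultured libraries. It stood at 88.0 and 76.2 in DN1, 94.2 and 83.4 in DN2a and 84.7 and 88.6 in DN2b. LSK replicates 1 and 3 stood at 41.2 and 32.1, and LSK replicate 2 and the IgG libraries had no peak. Over 2 libraries each, DN1 averaged 82.1 ± 8.30, DN2a 88.8 ± 7.60 and DN2b 86.7 ± 2.69 (SD), overlapping one another and all above LSK. At equal lengths the promoter was open in 6 of 6 Delta1-cultured libraries and 1 of 6 others (exact permutation test, p = 0.0152, adjusted p = 0.280). The distal site 25.8 kb upstream was found in the Delta1-cultured libraries alone, at 85.5 and 84.2 in DN1, 84.5 and 86.6 in DN2a and 68.9 and 88.9 in DN2b, and kept this at equal lengths. Gzmb was the nearest coding gene to it. The other Delta1-only site of this window was the promoter of a second granzyme gene, Gzmc, 27.5 kb downstream. Peaks in the window numbered 2, 1 and 3 in LSK, 11 and 3 in DN1, 9 and 8 in DN2a, 13 and 15 in DN2b and 0, 0 and 1 in IgG. At equal lengths they were 2, 1 and 1 in LSK, 3 and 2 in DN1, 5 and 5 in DN2a, 7 and 8 in DN2b and 0, 0 and 1 in IgG, so the DN2 counts were then above all others.

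Prf1, which makes the pore through which granzymes enter, had a promoter peak in LSK replicate 2 (58.9), both DN1 (63.2 and 58.6), DN2a replicate 1 (27.9) and both DN2b (42.7 and 76.8). IgG had none, the one DN2a value was below the others, and the LSK value lay within both the DN1 and the DN2b range. At equal lengths 3 of these peaks were left. The site 21.9 kb upstream, printed as Prf1 distal, was open in all 12 libraries. It stood at 94.6, 95.7 and 92.8 in LSK, 99.3 and 99.3 in DN1, 94.5 and 95.2 in DN2a, 73.6 and 89.3 in DN2b and 4.16, 20.03 and 56.4 in IgG. IgG averaged 26.9 ± 26.8 (SD, n = 3) against 92.7 ± 7.79 (SD, n = 9) in the rest, without overlap. The site lay 2.45 kb from the start of Adamts14. Counts in the window were 7, 10 and 7 in LSK, 12 and 11 in DN1, 8 and 6 in DN2a, 6 and 14 in DN2b and 2 in each IgG library, with the Delta1-cultured and LSK ranges overlapping. An intron site of Prf1 (chr10:61301177-61301346) was found in the Delta1-cultured libraries alone, at 59.4, 47.4, 37.2, 48.6, 60.5 and 75.0, and at equal lengths in DN2a replicate 2 and both DN2b libraries. One between the genes (chr10:61278077-61278266) was found in LSK alone, at 21.2, 55.4 and 58.1, and at equal lengths in LSK replicates 2 and 3.

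Whether these windows held more peaks in Delta1-cultured cells was asked by comparing counts per window between the 6 Delta1-cultured and the 6 LSK and IgG libraries. LSK cells were fresh, and the IgG cultures were in 4GF alone. The Delta1-cultured cells were sorted by KIT, CD44 and CD25, and the 4 DN2 libraries also had IL-7. Delta1 therefore cannot be told apart from culture, IL-7 or sorting in this comparison. The test was an exact permutation test over libraries, two-sided, with Benjamini-Hochberg adjustment over 20333 genes with peaks. Counts were higher at an adjusted p under 0.05 for 6 of the 10 genes, beside 18.2% of all genes tested. The differences in mean count were 20.3 at Rora, 13.2 at Tox and 5.50 at Tbx21 without overlap between groups (exact permutation p = 0.00217, adjusted p = 0.0294 each). Higher counts without overlap were found at 7.35% of genes. The other calls were Gzmb (8.67, exact permutation adjusted p = 0.0396), Zbtb16 (7.67, adjusted p = 0.0413) and Eomes (3.17, adjusted p = 0.0474), with groups that overlapped. Klrd1 (4.33, exact permutation adjusted p = 0.0598), Ncr1 (2.83, 0.0706), Prf1 (4.50, 0.126) and Nfil3 (2.00, 0.543) did not pass. The 6 calls became 0 without LSK replicate 1 or 2 or any IgG replicate, 2 without DN2b replicate 2 and 3 without DN1 replicate 1.

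These calls moved with list length, which was 57729 to 111582 peaks in Delta1-cultured libraries and 32952 to 62377 in LSK and IgG. The median difference over all genes was 3.00 peaks as deposited and 0.00 at equal lengths, and over the 10 genes 5.0 and 0.917. At equal lengths no gene of the 18440 tested was called in this direction (0.00%), the smallest adjusted p being 0.0613 by the exact permutation test. Unadjusted, 11.5% of genes were higher and 8.77% lower. Tox (5.50, exact permutation p = 0.00433, adjusted p = 0.0945), Gzmb (4.17, the same p) and Klrd1 (2.17, p = 0.00866, adjusted p = 0.110) were among the higher, and Nfil3 (fell by 2.67, p = 0.0281, adjusted p = 0.182) among the lower. Tbx21 turned, from 5.50 higher to a difference of -1.33. Ncr1, not called as deposited (2.83), had a difference of -0.333.

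**Figure D3:**
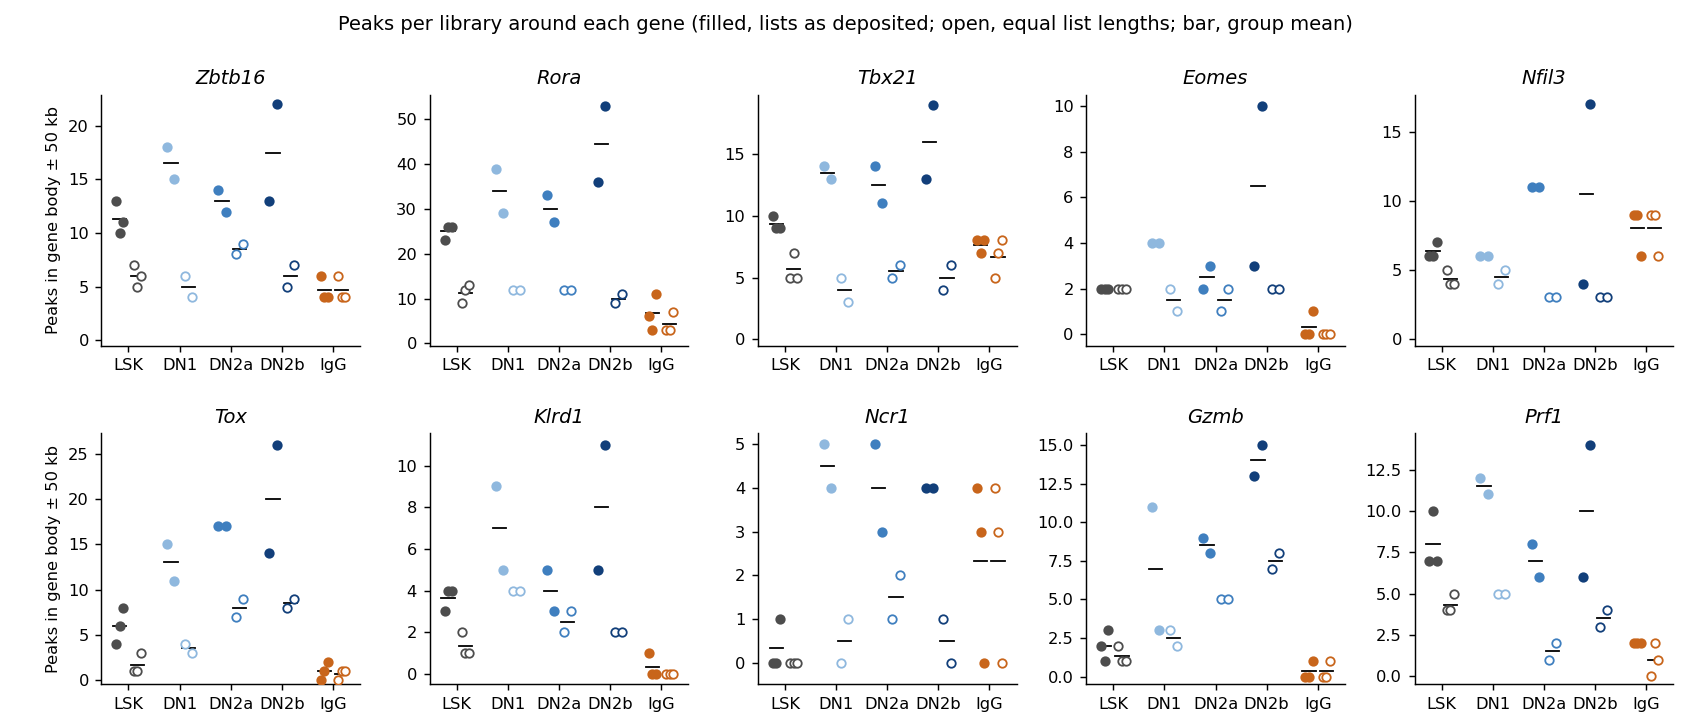
Number of peaks within 50 kb of each gene body in each of the 12 libraries, as deposited (filled) and at equal list lengths (open), with group means as bars. At equal lengths Tox and Gzmb counts are highest in DN2 and Nfil3 counts highest in IgG.

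The DN2 libraries were set against LSK, DN1 and IgG together. As deposited, no gene passed the adjusted threshold (0.00% of 20333), while 11.7% were higher at an unadjusted p under 0.05. Among the 10 these were Tox (12.6 peaks more, exact permutation p = 0.00404), Gzmb (8.63, p = 0.00606), Tbx21 (4.50, p = 0.0303) and Rora (16.9, p = 0.0465). At equal lengths again none passed (0.00%), but Tox (8.25 against 1.75 peaks) and Gzmb (6.25 against 1.25) did not overlap between groups (exact permutation p = 0.00202, adjusted p = 0.0648). A higher count without overlap was the state of 2.57% of genes. Nfil3 was lower without overlap, at 3.00 against 5.75 (exact permutation p = 0.0343, adjusted p = 0.226), as were 1.84% of genes.

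IgG cultures were set against the other 9 libraries. The IgG mean was higher at only 5.0% of the 20333 genes as deposited, so lower counts in IgG were the general state of these lists. As deposited, 3 genes were called lower in IgG, Zbtb16 (difference -9.56), Rora (-25.8) and Prf1 (-7.00; exact permutation p = 0.00455, adjusted p = 0.0426 each), beside 10.5% of genes. Counts lower without overlap were seen at 7 of the 10 and at 27.5% of genes. The 3 calls became 0 without LSK replicate 3, DN1 replicate 2, DN2a replicate 1, DN2b replicate 1 or any IgG replicate, and 5 without DN2b replicate 2. Fewer libraries allow fewer splits, so the smallest possible p was larger in these runs. The differences then ranged from -10.2 to -8.58 at Zbtb16, -27.9 to -23.2 at Rora and -7.375 to -6.375 at Prf1. At equal lengths Rora (4.33 against 11.3 peaks) and Eomes (0.00 against 1.78) were lower and Nfil3 (8.0 against 3.78) higher (exact permutation p = 0.00455, adjusted p = 0.0459 each), beside 4.10% and 5.81% of all genes.

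Promoter states gave no call. As deposited, 0 of 5723 variable promoters (0.00%) passed in either comparison by the exact permutation test, the smallest adjusted p being 0.153 for Delta1-cultured and 0.428 for DN2 libraries. Unadjusted, 3.72% and 1.71% were more often open, none of the 10 among them, with Klrd1 and Gzmb nearest (exact permutation p = 0.0606, adjusted p = 0.687 each). At equal lengths 0 of 4043 passed (0.00% in both), and the unadjusted shares were 2.50% and 3.02%, which took in Klrd1 and Gzmb in the first and Tox in the second.

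Promoters with exactly the same states in all 12 libraries show what else followed these orders. Klrd1 shared its states with 16 other coding genes, of which Klrb1c, Cd7 and Atp6v1g2 had the highest median percentile. At equal lengths it shared them with 40, Bcl11b and C1qtnf1 among them. Gzmb shared its states with 29 (Pygl, Adamtsl2 and H2-Oa), Zbtb16 with 15 (Ust, Slc30a4 and Gng10), Prf1 with 5 (Myl12b, Il12rb1 and Dbndd1) and Tox with 350 (Ctla2a, Gm49391 and Rcsd1). Nfil3 shared its states with none as deposited and with Slfn2 and Ccr10 at equal lengths.

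Across the 280 DHSs, 12 (4.29%, 95% Wilson interval 2.47 to 7.34) were found in all 6 Delta1-cultured libraries and in no other, beside 1.90% of all DHSs. Rora and Tox had 3 each, Gzmb 2, and Zbtb16, Tbx21, Ncr1 and Prf1 one each. For patterns named by groups alone, a DHS had to be in every library of those groups and in no other. The reverse, LSK and IgG alone, was found at 0 (up to 1.35% by the Wilson interval), beside 0.0987% of all. DN2 libraries alone had 6 (2.14%, 0.986 to 4.595), at Zbtb16, Rora and Tox, beside 0.758%. LSK alone had 5 (1.79%) beside 0.649%, DN1 alone 9 (3.21%) beside 1.77%, DN2b alone 8 (2.86%) beside 1.86% and IgG alone 3 (1.07%) beside 1.89%. All libraries but IgG shared 10 (3.57%) beside 3.17%, LSK and DN1 alone 1 (0.357%) beside 0.403%, and LSK, DN1 and DN2a without DN2b 0 beside 0.139%. Sites open in all 12 libraries numbered 6 (2.14%) beside 7.68%, and 93 (33.2%) were found in a single library, beside 32.7%.

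At equal lengths the windows held 120 of 76904 DHSs. Delta1-cultured libraries alone then had 7 (5.83%, 2.85 to 11.55) beside 1.84% of all, and DN2 alone 5 (4.17%) beside 1.99%. IgG alone had 7 (5.83%), 4 of them at Nfil3, beside 6.24%, and all libraries had 3 (2.50%) beside 14.2%. LSK alone had 1 (0.833%) beside 1.86%, so its share was then below that of all DHSs instead of above it. DN1 alone and DN2b alone had 3 each (2.50%) beside 1.08% and 1.68%, and all but IgG 3 (2.50%) beside 1.95%. LSK and IgG alone had 0 beside 0.456%, LSK and DN1 alone 1 (0.833%) beside 0.424%, and LSK, DN1 and DN2a without DN2b 1 (0.833%) beside 0.815%. Single libraries had 26 (21.7%) beside 23.0%. Intervals cover counting error only, and DHSs of one gene share their libraries and are not independent.

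**Figure D4:**
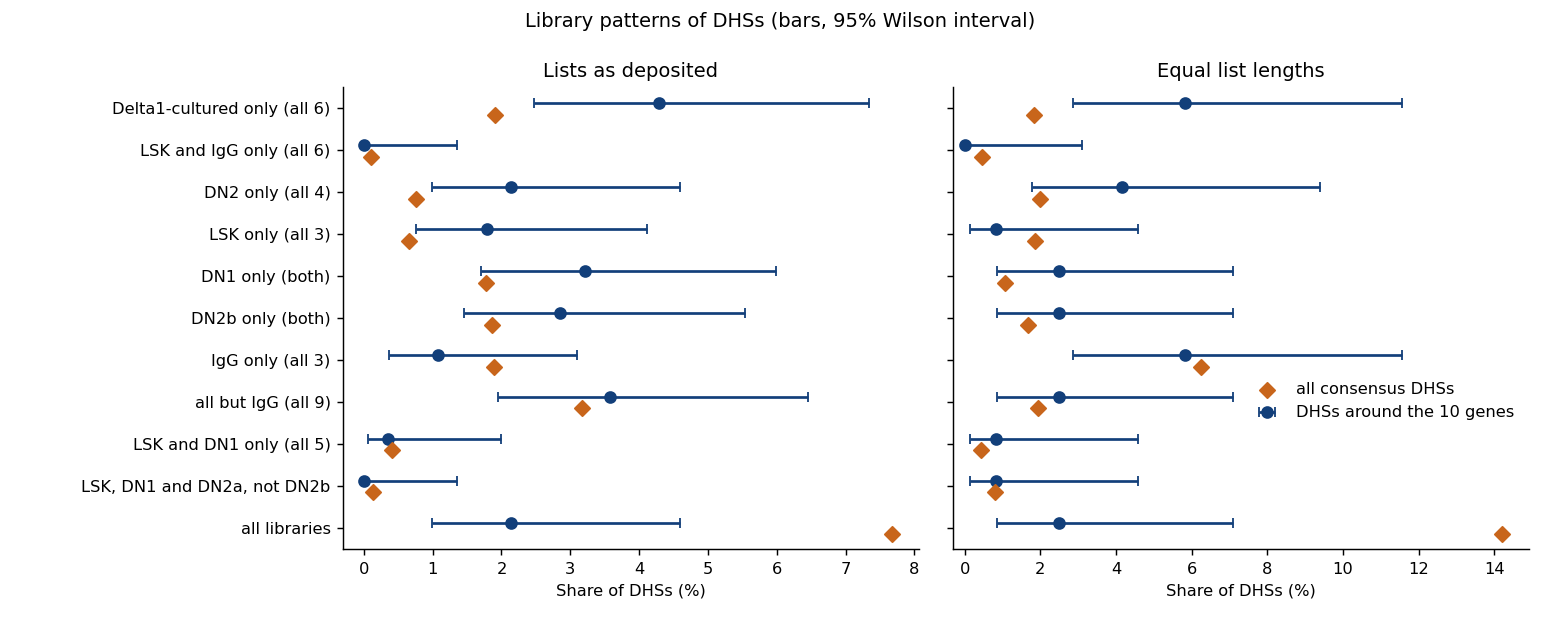
Share of DHSs (x axis, %) with each library pattern (y axis), around the 10 genes (circles, bars the 95% Wilson interval) and over all consensus DHSs (diamonds), as deposited and at equal lengths. The Delta1-only share around the 10 genes was 4.29% beside 1.90%, and the share open in all libraries 2.14% beside 7.68%.

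The 6 sites open in all libraries were compared by percentile. Higher values in Delta1-cultured libraries were called at 2 of them, beside 16.2% of 13068 such DHSs: the Osbpl7 promoter in the Tbx21 window (79.0 against 45.5, exact permutation p = 0.00217, adjusted p = 0.0249) and the Auh promoter in the Nfil3 window (90.0 against 78.6, the same exact p). Both calls were lost on leaving out any one of the 6 Delta1-cultured libraries. Lower values in IgG were called at 3, those and the Prf1 distal site, beside 53.7% of all. The Prf1 site had a difference of -65.8 and the Osbpl7 promoter of -47.8 (exact permutation p = 0.00455, adjusted p = 0.0129 each), and the Auh promoter of -12.7 (exact permutation p = 0.0136, adjusted p = 0.0285). Both promoters belong to neighbouring genes. These percentiles move with list length, which was longest in Delta1-cultured and shortest in IgG libraries, so the sites were also ranked among the always-open DHSs alone. Of the Delta1 calls, the Osbpl7 promoter was then still higher (27.4 against 9.59, exact permutation adjusted p = 0.0290, beside 5.06% of all) and the Auh promoter was not called (exact permutation adjusted p = 0.335). The Rora intron site open in all libraries (difference -27.7, exact permutation adjusted p = 0.0290) and a site 32.2 kb from the start of Tbx21 (chr11:97082977-97083206, difference -8.42, adjusted p = 0.0414) were called lower in Delta1-cultured libraries, beside 5.39%. In IgG the Prf1 site (difference -61.97) and the Osbpl7 promoter (-15.9) were still lower, beside 10.4%, and the Auh promoter was not called (difference -0.329). The Nfil3 site 1.89 kb upstream (difference 30.9) and the Tbx21 site (15.3) were called higher, beside 9.47% (exact permutation adjusted p = 0.0307 for these 4).

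Wider lists of the same biology were counted beside the 10 genes. Of 18 effector genes, 4 had promoters open in all 6 Delta1-cultured libraries alone, beside 0.336% of all coding genes. At equal lengths none had this state, beside 0.188%, as Gzma and Xcl1 were then open in the 4 DN2 libraries alone, Nkg7 in these and 1 DN1 library, and Gzmc in none. As deposited, Gzma stood at 43.6 and 33.1 in DN1, 82.0 and 80.7 in DN2a and 88.0 and 96.4 in DN2b. Nkg7, a granule protein, stood at 61.97, 72.7, 84.5, 78.5, 87.5 and 90.0 in the same order, and Xcl1, a chemokine of NK cells, at 24.9, 42.9, 53.1, 48.6, 60.5 and 78.5. DN2b replicate 2, the longest list, was highest in each, and percentiles move with list length. At the Klrd1 and Gzmb promoters, DN2b replicate 2 was above DN2b replicate 1 as deposited and below it at equal lengths. In Gzma, Nkg7 and Xcl1 every DN2 value was above both DN1 values. The fourth, Gzmc, was weak and overlapped between stages, at 22.7, 25.1, 27.9, 14.2, 12.9 and 45.7. Other effectors ran differently. Csf2 was highest in DN1 (52.2 and 47.4), with 11.7 in DN2a replicate 1 and 17.8 and 44.3 in DN2b, and the epidermal growth factor relative Areg was highest in LSK replicate 3 (52.7). At equal lengths Csf2 was open in 1 IgG library and no other, and Areg in 2 LSK libraries and no other. Ifng, the interferon of type 1 ILCs, was open in the 4 DN2 libraries alone, at 18.4, 25.3, 47.0 and 66.8, and in 1 library at equal lengths. Effector promoters open in at least 2 libraries numbered LSK 3, DN1 8, DN2a 7, DN2b 11 and IgG 1. At equal lengths they numbered 2, 1, 5, 5 and 0, DN1 then being below LSK.

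Of 25 receptor genes, 7 were open in at least 2 LSK libraries, 9 in both DN1 and both DN2a libraries, 12 in both DN2b libraries and 2 in IgG, and 10 were closed throughout. At equal lengths these counts were 4, 5, 4, 7 and 2, with 17 closed throughout. Klrb1c (NK1.1) stood at 48.6 and 63.6 in LSK replicates 1 and 2, 92.7 and 88.7 in DN1, 85.0 and 87.7 in DN2a and 65.6 and 88.2 in DN2b. All Delta1-cultured values were above LSK. The checkpoint receptor Tigit was open in DN2 alone, at 49.4, 27.8, 33.3 and 63.2, and in no library at equal lengths. Other receptors had another order. Il18rap, a chain of the IL-18 receptor, was open in all libraries, at 78.9, 82.7 and 85.8 in LSK and at 41.4 to 72.3 in DN2, without overlap. Il17rb was open in LSK replicates 1 and 3 alone and Il1rl1 in the DN1 libraries alone, and neither in any library at equal lengths. Of 16 transcription factors, Id2, which holds back E proteins in all ILCs, was open in every library at 89.3 to 98.3. Tcf7, shared by T cells and ILC precursors, was open in Delta1-cultured libraries alone, at 43.6, 45.2, 59.5, 59.5, 54.3 and 73.0, and at equal lengths in the 4 DN2 libraries alone. Counts of peaks were called higher in Delta1-cultured libraries for 9 of the 16 factors, 14 of the 25 receptors and 6 of the 18 effectors as deposited, beside 18.2% of all genes, and for none at equal lengths, where no gene was called (0.00%). Several of these lie side by side in gene clusters and share windows.

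Markers of early T cells were counted in the same way, and none of their promoters passed a test. Of 10 (Cd3e, Cd3d, Cd3g, Il2ra, Bcl11b, Rag1, Gata3, Tcf7, Lck and Ptcra, 3 of which are also in the factor list), 2 had promoters open in at least 2 LSK libraries, 4 in both DN1, 7 in both DN2a and 8 in both DN2b libraries and 0 in IgG. These counts were 0, 1, 6, 8 and 0 at equal lengths. Of the same 10, 2 (Rag1 and Tcf7) were open in all 6 Delta1-cultured libraries alone, beside 0.336% of all coding genes. At equal lengths 1 (Bcl11b) had this state, beside 0.188%. Ptcra was closed in all libraries. Of 7 progenitor markers (Kit, Cd34, Meis1, Hlf, Mecom, Gata2 and Flt3), 5, 5, 4, 5 and 4 were open in the same order of groups, with Mecom closed in all. At equal lengths they were 5, 4, 3, 3 and 4. Of 5 mast cell markers, 1, 2, 2, 2 and 0 were open, and Fcer1a, Tpsb2 and Ms4a2 were closed in all libraries. At equal lengths they were 0, 1, 1, 1 and 0, with Mcpt8 then open in 1 IgG library and no other. Counts of peaks were called higher in Delta1-cultured libraries as deposited for 8 of the 10 T cell markers, beside 18.2% of all genes. The same call was made for 0 of 7 progenitor, 1 of 7 myeloid, 1 of 5 mast cell and 2 of 5 B cell markers. No gene was called at equal lengths. There the median difference was 4.0 peaks over the T cell markers, 2.42 over the factors, 1.33 over the receptors and 1.75 over the effectors. The part of a change in cell mixture in the NK and ILC gene values was not tested.

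**Figure D5:**
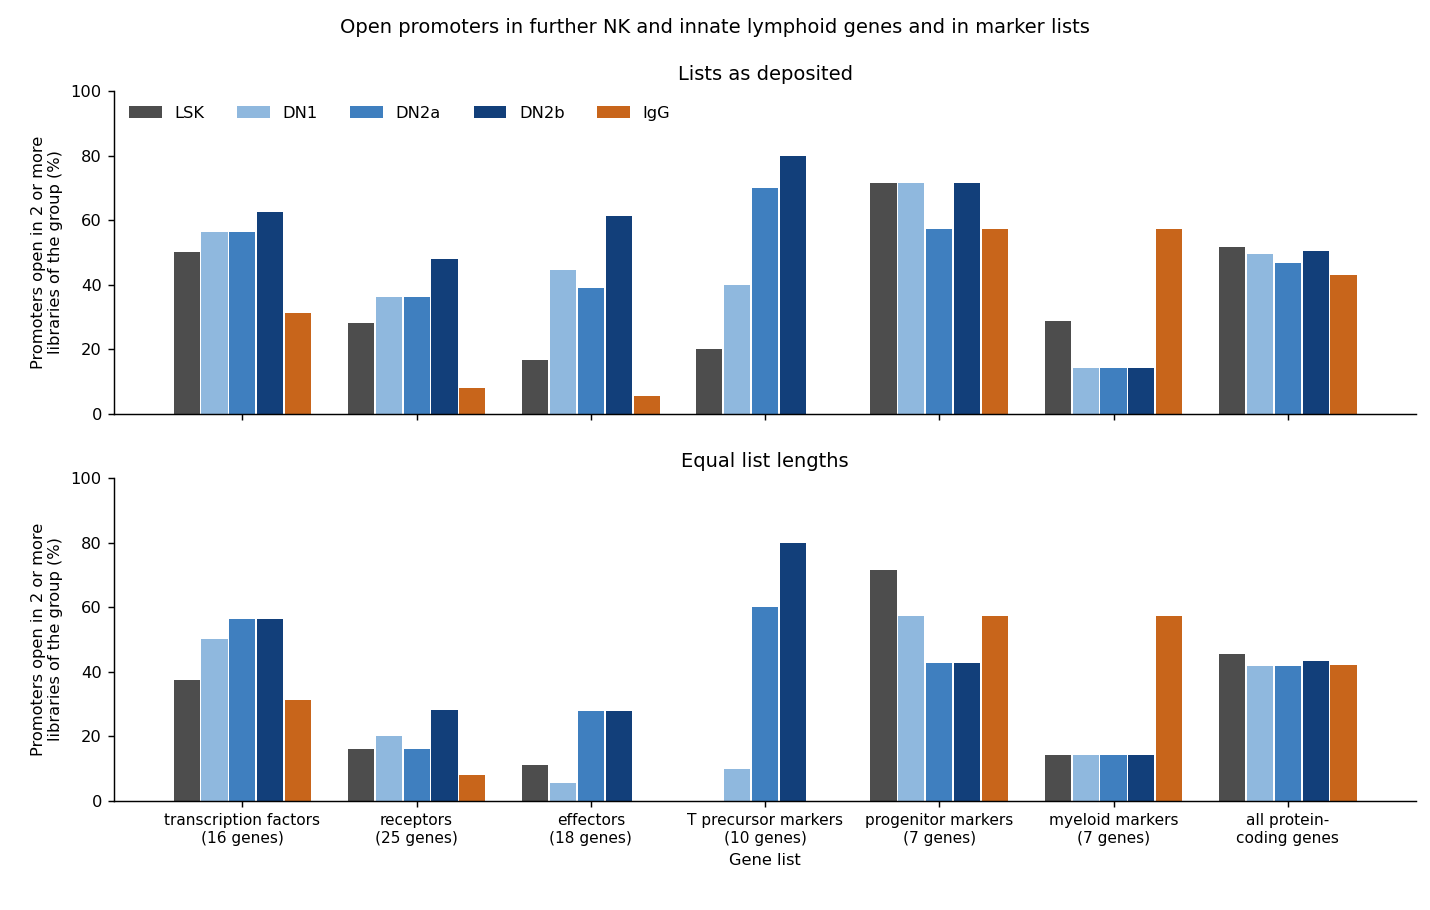
Promoters open in at least 2 libraries of each group, as a percentage (y axis) of each gene list and of all coding genes, as deposited (top) and at equal list lengths (bottom). Open effector promoters number 8 of 18 in DN1 as deposited but 1 at equal lengths, and open T precursor promoters 8 of 10 in DN2b in both.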

How the data were processed

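DNase-seq libraries of mouse LSK, DN1, DN2a, DN2b and IgG cells were deposited by the authors as peak lists, 1 per library, with 150-bp peaks and a score per peak. Per the study's methods, trimmed paired reads were aligned to mm10 and hotspot2 called the peaks, with a false discovery rate limit of 0.05. The submitters' processing notes name BWA 0.7.12 and SAMtools 1.2. How the deposited score was computed is not given in the sources used here, so it served only as a rank within a library. Depth is unknown, and GENCODE M21 genes were used, a later release than the study's.

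The members and gene lists were chosen with earlier results of these data known. Peaks of all libraries overlapping by at least 1 bp were merged into consensus DHSs. For each gene, the promoter state (a peak within 1 kb of the 5′ end), the count of peaks in the gene body with 50 kb flanks and the highest percentile per DHS were taken in each library. Tests were exact permutation tests over libraries, two-sided, with Benjamini-Hochberg adjustment over all genes or DHSs. The smallest p was 0.00217 for 6 against 6 libraries, 0.00202 for 4 against 8 and 0.00455 for 3 against 9. The 3 comparisons share libraries. The labels give groups but no replicate numbers, so replicates were numbered in accession order, and per the study's methods replicates of a stage came from separate LSK isolates.

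All 10 genes were named. DHSs were named by the highest median percentile per library pattern (up to 3) and the highest distal DHS per gene, and others in the text were picked after their values were seen. For shared promoter states, the 3 genes of highest median percentile were named, and some items are not reported here. Alternatives were equal list lengths, the upper 50% of each list, flanks of 20 and 100 kb, promoters of 500 and 2500 bp, every coding start site, counts per 10000 peaks, distal sites alone, other merging and ranking, and leaving out each library. Merging overlapping peaks of 1 library before counting was added after seeing the data. Scripts were tested on simulated data. Software was Python 3.11.15, numpy 2.4.6, pandas 2.3.3, scipy 1.17.1 and matplotlib 3.10.9.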

Additional observations from a re-analysis of the deposited data

How the results depend on the processing

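No paired analysis was possible because the labels give no replicate numbers and do not say which libraries share an LSK isolate. The 6 genes with higher counts in Delta1-cultured libraries became 0 at equal list lengths and per 10000 peaks, and 3 with the upper 50% of each list, 20 kb flanks or distal sites alone. They ranged from 0 to 7 on leaving out 1 library, with 0 without LSK replicate 1 or 2 or any IgG replicate, 2 without DN2b replicate 2 and 3 without DN1 replicate 1. The 3 genes lower in IgG became 0 with 20 kb flanks and 6 per 10000 peaks, and ranged from 0 to 5 on leaving out 1 library. The Delta1-only share of 4.29% became 7.46% in the upper 50% of lists and ranged from 4.30 to 6.12% on leaving out 1 library. The DN2-only share ranged from 2.15 to 4.26% in that way. The IgG-only share of 1.07% became 5.83% at equal lengths and ranged from 1.06 to 3.26% on leaving out 1 library, the highest without IgG replicate 3. Of the 6 sites open in all libraries, the 2 higher in Delta1-cultured libraries became 1 at equal lengths and in the upper 50% of lists and 0 to 2 on leaving out 1 library, and the 3 lower in IgG became 1 in the upper 50% and 2 to 3 on leaving out 1 library. Ranked among always-open sites, the Delta1 comparison had 1 site higher and 2 lower, and IgG 2 lower and 2 higher. The Tbx21 count difference turned to -1.33 at equal lengths and -0.0411 per 10000 peaks, and that of Nfil3 in IgG from -0.222 to 4.22 at equal lengths. The cause of these changes was not tested. No promoter call and no DN2 count call was made under any alternative run. Of 430 settings of single-gene values, 91 lost a call, 13 gained one and 15 numbers of open libraries moved. Only settings of the 6 Delta1 calls and the 3 IgG calls had a call to lose. The share lost among those settings was therefore larger than 91 of 430. Of the 380 that were count differences, 21 had the opposite sign, at Tbx21, Nfil3 and Ncr1, among them Nfil3 in Delta1-cultured libraries at equal lengths (-2.67). With every coding start site, Rora counted as open in 10 libraries instead of 1.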
